A study of Mus musculus with 3 samples.

Results

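The comparison described here sets mouse epiblast stem cells (EpiSCs) treated with Y27632 (labelled Y27) against EpiSCs without inhibitor (labelled NT). It was chosen by its labels, and takes 2 of the 3 RNA-seq libraries of the series, 1 for each condition. The remaining library, from cells treated with IWR1, an inhibitor of tankyrases and so of Wnt signalling, is printed beside them where its value helps. All 3 libraries came from EpiSCs of strain 129 at passage 1, which were routinely kept on gelatin in serum with both inhibitors. NT cells were collected after an overnight withdrawal of both, Y27 cells after 12 h with 0.5 µM Y27632 and IWR1 cells after 12 h with 2 µM IWR1. Whether the treated cells had first been kept without inhibitor is not stated, so NT may differ from Y27 by the time since the inhibitors were removed as well as by Y27632, and these cannot be told apart. The dose is given as labelled and is low for this inhibitor.

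EpiSCs are pluripotent cells derived from the post-implantation epiblast that grow as flat epithelial colonies. Y27632 competes with ATP at the kinases Rock1 and Rock2, which act below the GTPase RhoA. These kinases raise the phosphorylation of myosin light chain and, through LIM kinases, restrain cofilin, so that actin filaments are built up and contract. Actin assembly in turn frees the coactivators of serum response factor (SRF), which drives genes of actin, actin-binding and adhesion proteins. In stem cell culture the inhibitor is known for helping dissociated cells survive.

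Summed expected counts were 5767550 for NT, 5607725 for IWR1 and 5459332 for Y27. Levels are given as CPM, counts scaled to library size with TMM factors. The comparison covers 12955 genes, those whose level averaged 1 CPM or more across all libraries, with a median of 159 reads in NT and 164 in Y27. A log2 difference is log2((CPM + 1) in Y27/(CPM + 1) in NT), which understates the differences of low genes. Each fold is a ratio of CPM without the pseudocount, followed by its exact 95% interval, which covers counting error only. With 1 library per condition the spread between cultures is unknown, and differences are given by size without any p-value.

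All 16 EpiSC markers were listed in every library. Pou5f1, the core pluripotency factor, stood at 1463 CPM in NT, 1318 in IWR1 and 1163 in Y27. None of the 16 markers differed 2-fold between Y27 and NT, and their median log2 difference was -0.03 against -0.02 over all genes. Markers of other cells were mixed. Of 16 fibroblast and mesenchymal markers, 15 were listed and 10 compared, and their summed level was 1697 CPM in NT, 965 in IWR1 and 878 in Y27, most of it from Vim, which EpiSCs can express too. Of the 10 compared, 9 were below 0 and 2 at least 2-fold lower in Y27 (20%, against 1.34% of all genes), Col1a1 at 465 reads in NT and 173 in Y27 and Cd248 at 30 and 3. Among those not compared, Fap and Postn had at most 1 read in any of the libraries, and Lum was not listed. The neural list summed to 945, 1060 and 812 CPM in the same order, and of its 18 genes compared 2 were at least 2-fold higher in Y27 (11.1%, against 5.58% of all genes) and 1 lower (5.56%). These were Fabp7 (7.43-fold higher, 2.23 to 38.8), Meis2 (2.08-fold higher) and Tubb3 (2.25-fold lower). Of the 18, 9 were above 0 and 9 below. The members highest in NT were lower in Y27, Nes at 240 and 155 CPM and Nefl at 236 and 138.5. Sox11 was higher, at 147 and 222 CPM. Among neural genes not compared, Pax6 and Neurog1 had 0 reads in NT and 1 each in Y27. Hes5 had 3 and 0, and Neurod1 1 and 0. The endothelial and blood list summed to 58.2, 51.1 and 37.3 CPM, and the muscle list to 31.8, 42.2 and 41.9 CPM. The part of these markers in the differences below was not tested. In RNA from a whole culture, fewer cells of a type and less RNA per cell cannot be told apart.

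At the 2-fold threshold, 723 genes were higher in Y27 (5.58% of the genes compared) and 173 were lower (1.34%), 6.92% together, so 80.7% of the genes past it were higher. Of all genes compared, 48.1% had a log2 difference above 0 and 51.9% one below 0. The interval lay wholly past 2-fold for 256 of the higher and 49 of the lower genes. The higher genes had a median of 9.65 CPM in NT and 25.2 in Y27, and together took 1.86% of the counts in NT and 4.66% in Y27. The lower genes had a median of 9.73 CPM in NT and 3.23 in Y27. They took 0.568% of the counts in NT and 0.231% in Y27. The higher genes also had longer transcripts with less G and C than the lower genes, which is described after the named genes. Among the genes compared, 16 were at 0 in NT and 8 in Y27. S100a3, a calcium-binding protein gene chosen after its value was seen, had 17 reads in NT, 10 in IWR1 and 0 in Y27, which makes it at least 5.59-fold lower when 3 reads are taken as the limit in Y27, or 4.07-fold at the near end of the exact interval that also counts the error of the NT reads. The IWR1 library, which shares NT as its control, lay between NT and Y27 for 645 of the 723 higher genes and for 119 of the 173 lower genes. These genes were picked for lying far apart in NT and Y27, which by itself favours another library falling between. The share over all genes was not counted.

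**Figure D1:**
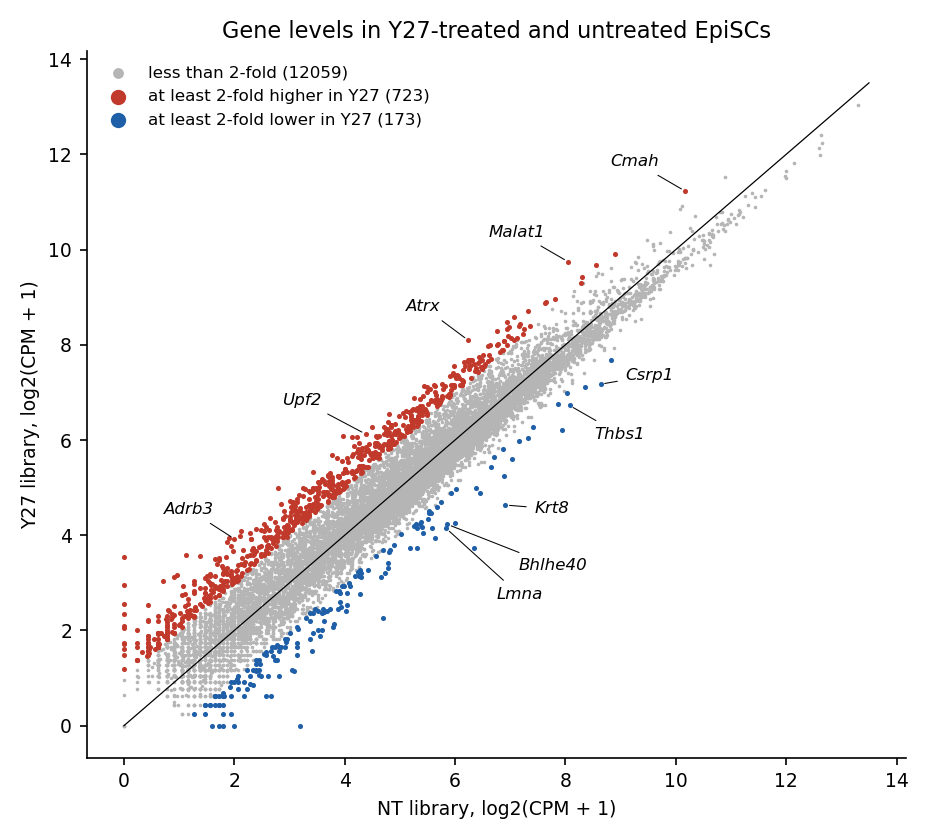
Level of each of the 12955 genes compared in the NT library (horizontal) and the Y27 library (vertical), both as log2(CPM + 1), 1 point per gene, with a line where both are equal. Red points are the 723 genes at least 2-fold higher in Y27 and blue points the 173 at least 2-fold lower. Red points reach from the lowest levels to Cmah near the top, and blue points lie mostly below 9 on the horizontal axis.

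The pathway that the inhibitor acts on was itself present and mostly within 2-fold. All 34 genes of the ROCK pathway list were compared, of which 15 were higher and 19 lower in Y27, with a median log2 difference of -0.05. At 2-fold, 2 were higher and 0 lower. Rock1, a kinase inhibited by Y27632, stood at 32.4 CPM in NT, 59.1 in IWR1 and 94.4 in Y27, and was 2.92-fold higher in Y27 (2.46 to 3.47). Rock2, its close relative, stood at 87.0, 119 and 160 CPM, a fold of 1.84 (1.65 to 2.06). Both kinase genes were thus highest in Y27 and lowest in NT. The other member past 2-fold was Diaph2, a formin that elongates actin filaments, at 18.7, 36.0 and 42.6 CPM (2.28-fold, 1.80 to 2.89), with counts shared out between genes.

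Upstream of the kinases, the GTPase genes were lower in Y27. Rhoa, the main activator of the kinases, had a log2 difference of -0.29, Rhob of -0.52 and Rhoc of -0.69. Downstream, the members of the list stood on both sides. The myosin light chain genes Myl9 and Myl12a had log2 differences of -0.94 and -0.77, while Myl12b was near 0 at -0.09. The kinase gene Limk2 was at -0.60 and Limk1 at -0.06. Cofilin, which severs actin filaments, is encoded by Cfl1, at -0.52, and by Cfl2, at 0.46. After removal of the length and GC trend both were below 0, Cfl1 at -0.32 and Cfl2 at -0.48. The myosin phosphatase genes were above 0, with Ppp1cb at 0.87 and Ppp1r12a at 0.49, and at 0.20 and 0.36 after removal. Among the exchange factors that activate these GTPases, Arhgef1, Arhgef2 and Arhgef11 lay between -0.14 and -0.04 and Arhgef12 was at 0.31. The interval of the fold included 1 for the first 3 of these.

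Kinases that Y27632 is also known to bind gave 6 members above and 9 below 0 among the 15 compared. None was past 2-fold by the log2 difference. Mastl, which protects mitotic phosphorylation, was the member with the largest size, at 23.7 CPM in NT, 39.3 in IWR1 and 47.5 in Y27. Its log2 difference was 0.97 and its fold 2.003 (1.621 to 2.485). Of 28 regulators of the related GTPases Rac and Cdc42, 16 were above 0 and 12 below. The single member past 2-fold was Arhgap5, a GTPase-activating protein, at 33.4, 64.7 and 96.0 CPM (2.87-fold, 2.43 to 3.41), a log2 difference of 1.49 that was 0.22 after removal of the length and GC trend described further on.

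The actin and SRF target list had 23 of its 24 compared genes below 0, with 7 at least 2-fold lower (29.2%, against 1.34% of all genes) and a median log2 difference of -0.66. Actc1, the cardiac actin gene, stood at 80.2 CPM in NT, 52.7 in IWR1 and 12.4 in Y27, a 6.48-fold lower level in Y27 (5.02 to 8.48), with part of its counts shared with other actin genes. Csrp1, a LIM protein of actin bundles, stood at 397, 346 and 143 CPM (2.77-fold lower, 2.56 to 3.01). Tagln, which binds actin in contractile cells, stood at 244, 173 and 73.1 CPM. For these 3 genes IWR1 lay between NT and Y27. The keratin genes Krt8, Krt18 and Krt19 were lower as well, Krt8 most, at 119 CPM in NT, 75.4 in IWR1 and 23.8 in Y27 (5.01-fold lower, 4.16 to 6.08).

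Beyond the actin and keratin genes, Lmna, which encodes lamins A and C of the nuclear lamina, stood at 56.3 CPM in NT, 47.3 in IWR1 and 16.7 in Y27 (3.38-fold lower, 2.67 to 4.30). Bhlhe40, a transcriptional repressor that responds to hypoxia and to the clock, stood at 57.1, 59.7 and 17.7 CPM (3.22-fold lower, 2.56 to 4.08). Phlda1, a gene induced by growth factor signalling, stood at 38.6, 38.9 and 12.2 CPM (3.16-fold lower, 2.40 to 4.22). For these 3 genes IWR1 was much nearer to NT than to Y27. Sfn, stratifin, an adaptor of epithelial cells, took an intermediate course, at 48.7, 26.6 and 14.3 CPM. Gprc5a, an orphan receptor induced by retinoic acid, and Dusp14, a phosphatase of MAP kinases, were low in both treated libraries. Gprc5a stood at 24.2 CPM in NT, 5.72 in IWR1 and 7.71 in Y27, and Dusp14 at 26.5, 10.4 and 8.96. Spp1, the secreted matrix protein osteopontin, was the exception in order, at 14.3 CPM in NT, 60.7 in IWR1 and 4.66 in Y27.

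**Figure D2:**
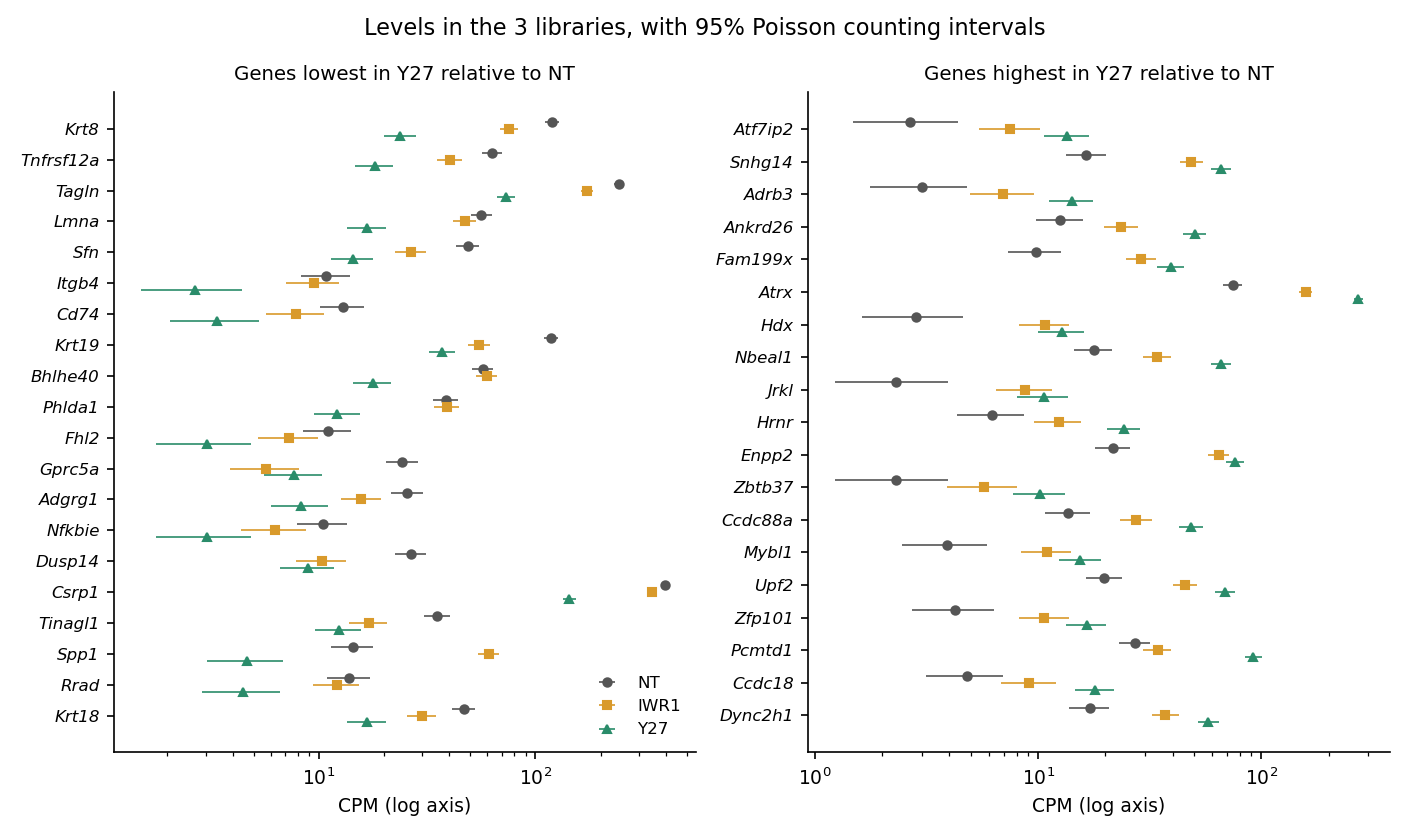
Level in CPM, on a log axis, of the genes with the largest log2 differences in each direction, at most 20 each way, among named genes with whole counts and at least 10 CPM in the higher library. Each gene has 1 point per library (NT circles, IWR1 squares, Y27 triangles), and bars are 95% Poisson counting intervals. The NT and Y27 bars of each gene do not overlap, and IWR1 lies between them for most genes but above both for Spp1.

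Lists of cell contact differed among themselves. Of 29 focal adhesion genes, 21 were below 0 and 8 above, with a median of -0.38, and 1 was past 2-fold (3.45%, against 1.34% of all genes). That gene was Flnc, a filamin that crosslinks actin, at 455 CPM in NT, 346 in IWR1 and 204 in Y27 (2.23-fold lower, 2.08 to 2.39). Tgfb1i1, 2.03-fold lower (1.676 to 2.468), was not counted, since its log2 difference was -0.9966. Ilk, the scaffold between integrins and actin, stood at 190, 129 and 105 CPM (1.81-fold lower). Lims1, which encodes its partner in the same complex, went the other way, at 38.9, 61.4 and 77.2 CPM (1.98-fold higher). Of 42 matrix and matrix enzyme genes, 31 were below 0, 6 were at least 2-fold lower (14.3%) and 1 was higher, with a median of -0.40. Protocadherins, by contrast, had 9 genes above and 8 below 0 (median 0.03), and semaphorins, plexins, netrins and Slit/Robo 27 above and 15 below (median 0.11). Tnc, tenascin, stood at 9.55 CPM in NT, 17.5 in IWR1 and 1.97 in Y27 (4.85-fold lower, 2.51 to 10.3). Col1a1, a fibrillar collagen, stood at 82.3, 54.7 and 31 CPM and is also a marker of fibroblasts, whose list was lower in Y27.

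Genes of the hemidesmosome, the junction that ties keratin to the basement membrane, were chosen after their values were seen. Of the 9 compared, 8 were below 0 and 2 were at least 2-fold lower (22.2%, against 51.9% below 0 and 1.34% at least 2-fold lower among all genes). Itgb4, the integrin subunit particular to this junction in textbook accounts, stood at 10.8 CPM in NT, 9.47 in IWR1 and 2.69 in Y27 (4.02-fold lower, 2.25 to 7.61). Lamb3, a laminin chain of its ligand, stood at 7.78, 2.86 and 2.15 CPM (3.62-fold lower, 1.88 to 7.53). Itga3, a laminin receptor subunit, stood at 279, 270 and 152 CPM (1.83-fold lower). The exception was Dst, dystonin, a very long linker, at 285, 358 and 558 CPM (1.96-fold higher). The summed level of the list was similar, at 1176 CPM in NT and 1154 in Y27, with Dst among its members.

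Among signalling genes, the NF-kB family, its inhibitors and targets were also chosen after their values were seen. Of 14 compared, 11 were below 0, against 51.9% of all genes, with a median of -0.55. At 2-fold, 4 were lower (28.6%, against 1.34% of all genes) and 1 higher (7.14%, against 5.58%). After removal of the length and GC trend, 1 was lower, Nfkbie, and 1 higher, with a median of -0.43. Nfkbia was then at -0.86 and Nfkb2 at -0.87. Nfkb2, which encodes a precursor subunit, stood at 103 CPM in NT, 78.8 in IWR1 and 49.1 in Y27 (2.10-fold lower, 1.81 to 2.43). Nfkbia and Nfkbie, inhibitors that hold the factor in the cytoplasm, stood at 37.1, 26.1 and 17.2 CPM and at 10.4, 6.25 and 3.05 CPM. Nfkb1 differed little, at 67.8 CPM in NT, 67.9 in IWR1 and 68.3 in Y27, and Nfkbiz was higher, at 3.01, 5.90 and 7.53 CPM. Tnfrsf12a, a receptor that can activate this pathway, stood at 63.3, 40.2 and 18.1 CPM (3.50-fold lower, 2.80 to 4.41). In the ERK feedback list 15 of 21 genes were below 0 and 2 at least 2-fold lower (9.52%, against 1.34% of all genes). These were Phlda1 and Dusp14, while Etv1 was 1.95-fold higher.

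Receptors of the Eph family, which sense ephrins on neighbouring cells, differed in direction. Epha2 stood at 232 CPM in NT, 131 in IWR1 and 107 in Y27 (2.17-fold lower, 1.96 to 2.39). Epha4 stood at 36.1, 33.6 and 79.4 CPM (2.20-fold higher, 1.86 to 2.61). Over the 18 genes compared, 10 were above 0 and 8 below.

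Promoters of the lower genes were read for motifs, since SRF and AP-1 are factors with known sites near genes of the cytoskeleton and adhesion. RefSeq gave a promoter window, 250 bases before to 50 after the start, for 117 of the 173 lower genes, 570 of the 723 higher genes and 10287 of all genes compared. The CArG box, the site of SRF, searched on both strands, was in 5.98% of the promoters of lower genes, 1.93% of those of higher genes and 1.57% of all. The AP-1 motif TGANTCA was in 14.5%, 6.32% and 5.83% in the same order. The TEAD motif GGAATG was in 21.4%, 13% and 14.6%, the CRE TGACGTCA in 5.98%, 4.21% and 3.69%, and the NF-Y motif CCAAT in 47.9%, 46.7% and 43.3%. These shares rest on 7 lower genes for the CArG box and 17 for AP-1, and a match is a description of letters. The following stretches, from RefSeq on GRCm38.p6, are shown because their genes were at least 2-fold lower and hold the motif. They read 5′ to 3′ along the strand named, and capitals mark the motif, first the CArG box in an actin gene pair and in 4 other genes.

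Actc1, chr2:114052888-114052947, minus strand: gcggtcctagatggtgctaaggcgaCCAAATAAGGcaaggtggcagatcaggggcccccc
Acta1, chr8:123894814-123894873, minus strand: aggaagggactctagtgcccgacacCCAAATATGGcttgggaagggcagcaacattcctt
Fhl2, chr1:43196823-43196882, minus strand: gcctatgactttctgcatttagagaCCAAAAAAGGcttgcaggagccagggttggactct
Trnp1, chr4:133498696-133498755, minus strand: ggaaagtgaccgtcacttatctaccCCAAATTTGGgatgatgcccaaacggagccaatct
Glipr2, chr4:43957593-43957652, plus strand: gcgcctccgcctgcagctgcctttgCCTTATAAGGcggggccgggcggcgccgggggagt
Tmem63a, chr1:180942383-180942442, plus strand: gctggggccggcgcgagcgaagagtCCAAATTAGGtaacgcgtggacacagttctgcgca

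The levels of these genes were as follows. Acta1, the skeletal actin gene, stood at 15.3 CPM in NT and 4.33 in Y27, Fhl2, a LIM protein and SRF target, at 11 and 3.05, and Trnp1 at 6.55 and 2.15. Glipr2 stood at 170 CPM in NT and 76.9 in Y27, and Tmem63a, a mechanosensitive ion channel, at 52.7 and 25.1. The AP-1 motif is shown in 5 genes of adhesion and NF-kB signalling.

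Adgrg1, chr8:94984233-94984289, plus strand: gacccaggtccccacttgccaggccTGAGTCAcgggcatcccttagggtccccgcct
Nfkbie, chr17:45555519-45555575, plus strand: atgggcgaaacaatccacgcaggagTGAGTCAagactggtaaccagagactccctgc
Tinagl1, chr4:130175265-130175321, minus strand: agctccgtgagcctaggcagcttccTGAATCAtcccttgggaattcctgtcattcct
Plaur, chr7:24462389-24462445, plus strand: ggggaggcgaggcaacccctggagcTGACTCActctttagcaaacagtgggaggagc
Anxa2, chr9:69453563-69453619, plus strand: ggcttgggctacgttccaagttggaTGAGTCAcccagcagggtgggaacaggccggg

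Adgrg1, an adhesion G protein-coupled receptor, stood at 25.7 CPM in NT, 15.7 in IWR1 and 8.24 in Y27 (3.11-fold lower, 2.22 to 4.44). Tinagl1, a secreted matrix protein, stood at 35.2, 17.0 and 12.4 CPM (2.85-fold lower, 2.15 to 3.80). Plaur, the urokinase receptor, stood at 11 CPM in NT and 4.12 in Y27, and Anxa2, a membrane-binding annexin, at 261 and 126.

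The higher genes were led by genes of chromatin, cilium and RNA decay. Atrx, a chromatin remodeller, stood at 74.5 CPM in NT, 158 in IWR1 and 272 in Y27 (3.66-fold higher, 3.28 to 4.08). Upf2, a factor of nonsense-mediated mRNA decay, stood at 19.8, 45.6 and 68.8 CPM (3.47-fold higher, 2.81 to 4.33). Both were lowest in NT and highest in Y27. Enpp2, the secreted enzyme autotaxin, which makes lysophosphatidic acid, a lipid that signals through receptors to RhoA, stood at 21.6, 64.3 and 76.3 CPM (3.54-fold higher, 2.89 to 4.36). For Pcmtd1 the IWR1 library stayed close to NT, at 27.1, 34.3 and 92.1 CPM (3.40-fold higher, 2.84 to 4.10). Dync2h1, the motor of transport inside cilia, stood at 17.0, 37.2 and 57.9 CPM (3.41-fold higher), and Snhg14, a long RNA that hosts small nucleolar RNAs and runs antisense to Ube3a, at 16.5, 48.6 and 65.9. Strand of the library is not stated, so reads of antisense partners cannot be told apart.

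By absolute level, the largest differences toward Y27 were in Cmah, Npm1, Hsp90aa1, Ncl and Malat1, and the largest toward NT in Actg1, Pkm, Eef1a1, Gapdh and Eno1. Cmah, an enzyme of sialic acid synthesis, stood at 1148 CPM in NT, 2497 in IWR1 and 2399 in Y27 (2.09-fold higher, 2.03 to 2.15). Npm1, a chaperone of the nucleolus, stood at 1908, 2983 and 2945 CPM (1.54-fold higher). Actg1, a cytoplasmic actin gene, stood at 6277, 5409 and 4025 CPM (1.56-fold lower, 1.53 to 1.59). Pkm, the last enzyme of glycolysis, stood at 6207, 5171 and 4461 CPM, 1.39-fold lower. Of the 20 genes with the largest differences in CPM, 10 in each direction, Flna, a filamin, was at -0.53 and Hnrnph1, a splicing factor, at 1.13. Counts of Cmah, Malat1, Ncl, Hnrnph1, Actg1, Eef1a1, Gapdh and Eno1 are partly fractional, since reads that fit several genes were shared out.

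The size of the difference followed the make-up of the transcript. Across the genes compared, Spearman's correlation of the log2 difference with GC content was -0.51 and with transcript length 0.34, over 12825 genes of known GC content. Genes are not independent replicates, and both come from the same 2 libraries. The median transcript of the 723 higher genes was 4259 bases long with 41.6% GC, that of the 173 lower genes 2072 bases with 55.1%, and that of all genes compared 2886 bases with 50.5%. In the decile of genes with the least GC (29.8% to 42.2%), the median log2 difference was 0.72, with 388 of 1283 genes at least 2-fold higher (30.2%) and 1 lower. In the decile with the most GC it was -0.20, with 7 higher and 37 lower. In the decile with the longest transcripts the median was 0.33, with 186 higher and 7 lower, and in the shortest decile it was -0.23. The lowest-GC decile held 5.23% of the counts in NT, 7.21% in IWR1 and 8.44% in Y27. Of the 663 genes in both the longest of 5 length classes and the lowest of 5 GC classes, 236 were at least 2-fold higher (35.6%) and 0 lower. The same trend, smaller, is seen in IWR1 over NT, which shares the NT library, so the NT library is a part of both.

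**Figure D3:**
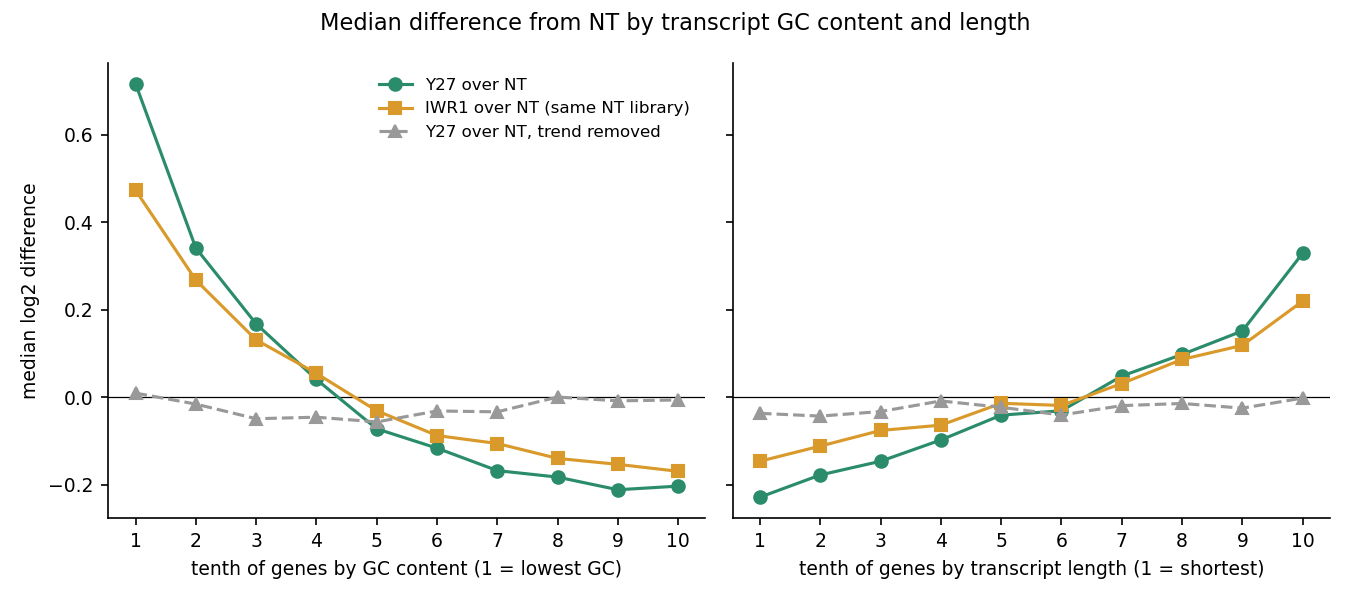
Median log2 difference by decile of genes, ordered by GC content (left) and by transcript length (right), for Y27 over NT (circles), IWR1 over NT (squares) and Y27 over NT after removal of the trend (triangles). Y27 over NT falls from 0.72 in the lowest-GC decile to -0.20 in the highest and climbs from -0.23 to 0.33 with length. IWR1 over NT follows at a smaller size, and the triangles stay near 0.

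A surface fitted on the log2 of length and on GC content, with terms up to the cube, accounted for 38.1% of the variance of the log2 differences among these genes, and for 54.2% among the 7692 genes with at least 20 CPM. After its removal, 201 genes were at least 2-fold higher (1.57%) and 148 lower (1.15%), so 57.6% were higher, while 46.8% of all genes lay above 0 and 53.2% below. As measured, 155 genes of the first set and 107 of the second had passed as well. Whether the trend comes from the cells or from RNA handling and sequencing was not tested, and with 1 library per condition it cannot be told apart from the treatment. The 20 genes with the largest differences toward NT, those in the plot of levels in the 3 libraries, had log2 differences from -1.17 to -2.03 after removal. Rock1 was at 0.62 and Rock2 at 0.00. Atrx was at 0.63 and Enpp2 at 1.55.

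Some genes past 2-fold lay on the other side of the median GC content from most genes of their direction. For lower genes just under that median this is not against the trend. In the decile from 48.7% to 50.5% GC the median log2 difference was already -0.07. Of the higher genes, 53 had transcripts with at least the median GC content (36 with whole counts), and of the lower genes 33 had less than the median (23 with whole counts). The following were chosen after their values were seen. Adrb3, an adrenergic receptor, has 55.3% GC and stood at 3.01 CPM in NT, 6.97 in IWR1 and 14.2 in Y27 (4.71-fold higher, 2.76 to 8.48). Gdpd3, a lysophospholipase of the phosphodiesterase family, stood at 5.66, 11.8 and 18.5 CPM, and Neat1, the long RNA of paraspeckles, at 21.9, 47.2 and 51.8. On the other side, Thbs1, thrombospondin, stood at 269, 160 and 105 CPM (2.56-fold lower, 2.33 to 2.83). Bhlhe40, also below the median in GC, had a log2 difference of -1.63 both as measured and after removal.

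Genes of the paraxial mesoderm, the tissue that forms somites, include several with high GC and were also chosen after their values were seen. Of 10 compared, 8 were above 0, against 48.1% of all genes. At 2-fold, 3 were higher (30%, against 5.58% of all genes) and 1 lower (10%, against 1.34%). Their summed level was 101 CPM in NT, 62.0 in IWR1 and 139 in Y27. Dll1, a Notch ligand of that tissue, stood at 4.78, 2.32 and 15.9 CPM (3.34-fold higher, 2.15 to 5.34). Tbx6, the transcription factor that sets its identity, stood at 2.65, 1.43 and 7.17 CPM (2.70-fold higher, 1.46 to 5.26). Hes7, a repressor of the segmentation clock, had a low level of 0.71, 1.07 and 2.69 CPM (3.80-fold higher, 1.21 to 15.7). Lfng, which modifies Notch, was lower, at 13.3, 11.4 and 6.09 CPM (2.18-fold lower, 1.43 to 3.37). Msgn1, a master factor of the tissue, stood at 19.1, 0.18 and 25.1 CPM, which sets IWR1 apart from both other libraries. The Notch pathway list had 15 of 21 genes above 0. Its members past 2-fold were Dll1 and Hes7, higher (9.52%, against 5.58% of all genes), and Lfng, lower (4.76%, against 1.34%).

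The zinc finger, centrosome, mitotic and chromatin lists lay on the higher side, each with a median GC content below that of all genes compared, and their medians were smaller after removal of the trend. Of 347 zinc finger genes, mostly encoding transcriptional repressors, 273 were above 0 and 97 at least 2-fold higher (28%, against 5.58% of all genes) and 1 lower, with a median of 0.43. After removal of the trend the median was 0.16 and 9 were at least 2-fold higher, against 1.57% of all genes. Of these genes, 172 had whole counts in both libraries. The rest did not, since such genes share sequence and reads that fit several genes were shared out. Of 71 centrosome and cilium genes, 61 were above 0 and 12 at least 2-fold higher (16.9%), 2 after removal, with medians of 0.30 and 0.22. Pcm1, a scaffold of centriolar satellites, stood at 70.4 CPM in NT, 143 in IWR1 and 198 in Y27 (2.81-fold higher, 2.50 to 3.16). Of 55 mitotic genes, 33 were above 0 and 10 at least 2-fold higher (18.2%), 0 after removal, with medians of 0.18 and 0.12. Cenpe, the kinetochore motor, stood at 74.7, 117 and 198 CPM (2.65-fold higher), and Kif20b at 43.9, 80.9 and 137. Of 85 chromatin remodellers and histone lysine enzymes, 60 were above 0 and 10 at least 2-fold higher (11.8%), 0 after removal, with medians of 0.18 and 0.11.

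Splicing proteins and ubiquitin enzymes passed 2-fold at shares close to that of all genes. Of 69 splicing proteins, 42 were above 0 and 5 at least 2-fold higher (7.25%), with medians of 0.15 and 0.06. Clk1, a kinase that acts on SR proteins, stood at 27.6 CPM in NT, 61.3 in IWR1 and 78.5 in Y27 (2.84-fold higher, 2.36 to 3.44). Of 84 ubiquitin ligases and deubiquitinases, 57 were above 0 and 4 at least 2-fold higher (4.76%, under the 5.58% of all genes), and their median of 0.31 was -0.01 after removal. All 11 nuclear-retained long RNAs were above 0 and 8 at least 2-fold higher (72.7%, against 5.58% of all genes), 4 after removal, with medians of 1.15 and 0.78. Malat1 stood at 264, 628 and 857 CPM (3.25-fold higher, 3.07 to 3.45), partly from shared reads. Of 24 imprinted genes, 13 were above 0 and 3 at least 2-fold higher (12.5%, against 5.58% of all genes), 1 after removal. Among the 3 was Meg3, at 62.0, 104 and 141 CPM, which has 53.9% GC.

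**Figure D4:**
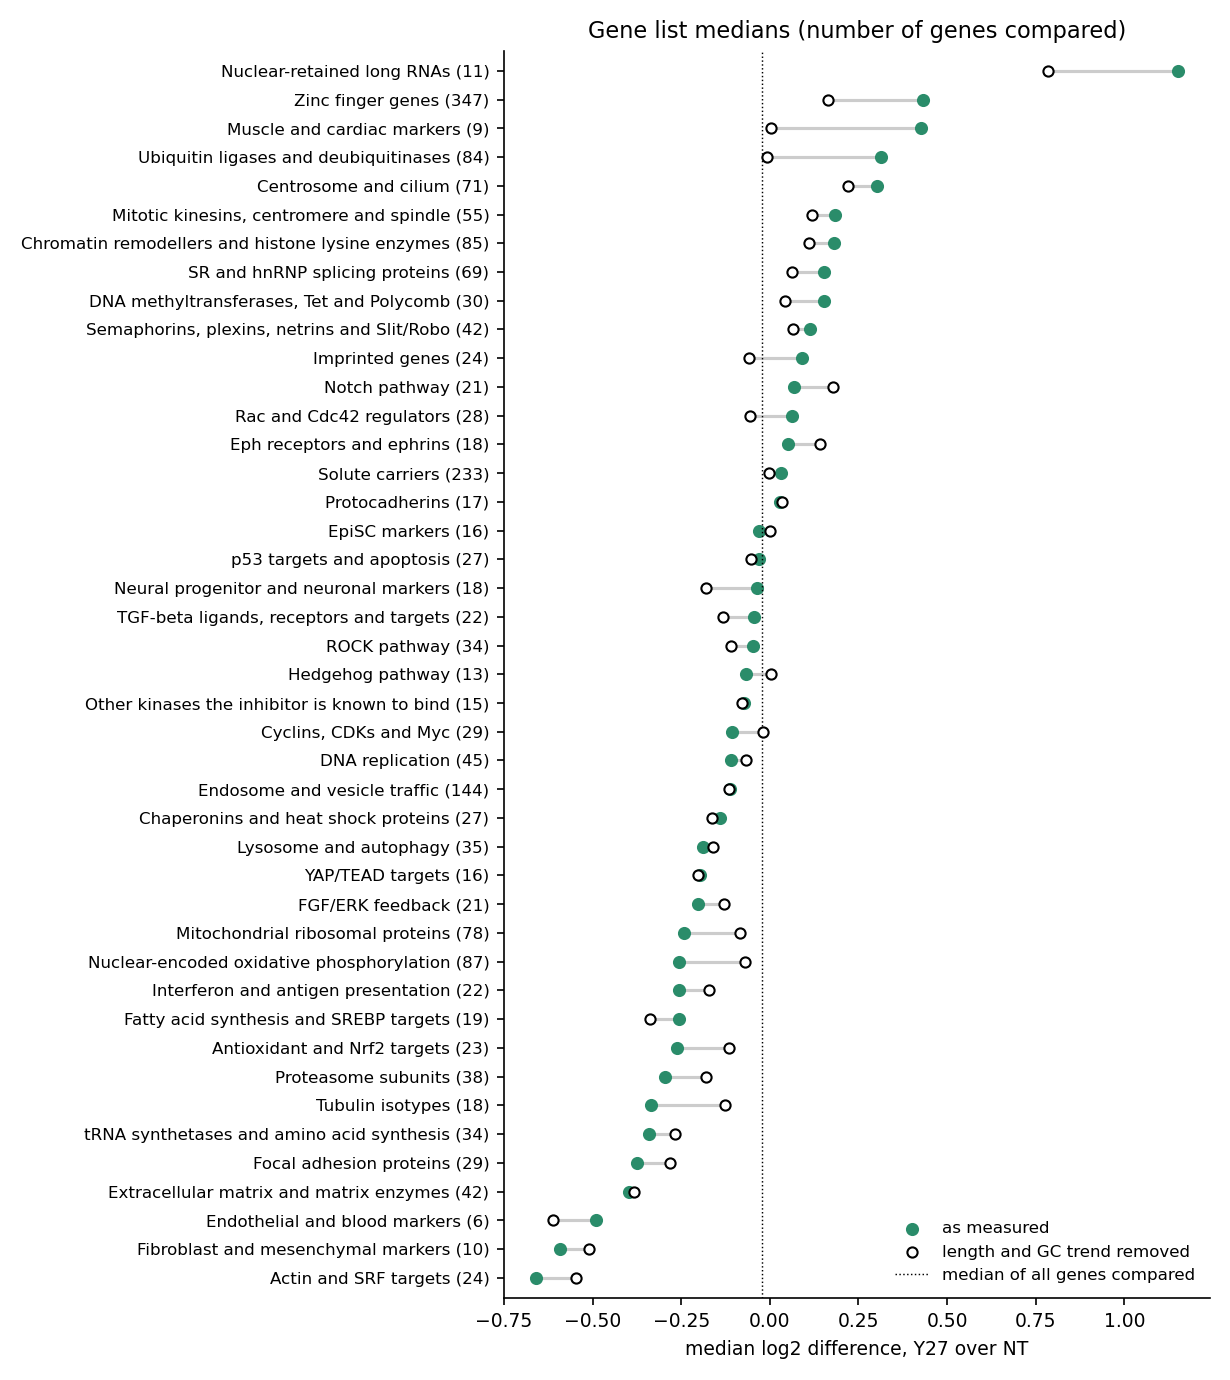
Median log2 difference, Y27 over NT, of each of the 43 gene lists, with its number of genes compared in brackets. Filled points are as measured and open points after removal of the length and GC trend, with a dotted line at the median of all genes. The 3 lists chosen after their values were seen (paraxial mesoderm, NF-kB, hemidesmosome) are not shown. Nuclear-retained long RNAs are at the top with 1.15, and the actin and SRF targets at the bottom with -0.66. The largest gaps between the filled and open points lie in the ubiquitin, muscle and zinc finger lists and the nuclear-retained RNAs.

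Genes with short transcripts of energy and protein metabolism were lower by small amounts, and almost none passed 2-fold. Of 87 nuclear-encoded genes of oxidative phosphorylation, 78 were below 0 and none past 2-fold, with medians of -0.26 as measured and -0.07 after removal. Of 78 mitochondrial ribosomal proteins, 65 were below 0, with medians of -0.24 and -0.08, and of 38 proteasome subunits, 33 were below 0, with medians of -0.30 and -0.18. For the proteasome, Psmb11 was the 1 gene past 2-fold, higher and with few reads. Of 34 tRNA synthetases and amino acid synthesis genes, 31 were below 0, with medians of -0.34 and -0.27, while the median of IWR1 over NT was 0.05. Asns, which makes asparagine, stood at 313 CPM in NT, 205 in IWR1 and 206 in Y27 (1.52-fold lower, 1.41 to 1.64), and Sars, the seryl-tRNA synthetase, at 297, 297 and 194 (1.53-fold lower). IWR1 thus lay with NT for Sars and with Y27 for Asns.

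Most lipid, redox and tubulin genes lay below 0, with 1 past 2-fold, Tubb3. Of 19 fatty acid synthesis genes and SREBP targets, 16 were below 0, with medians of -0.26 and -0.34, none of them past 2-fold. Of 23 antioxidant genes, 19 were below 0, with medians of -0.26 and -0.12. Of 18 tubulin genes, 14 were below 0, with medians of -0.34 and -0.13, and Tuba1a stood at 1662, 1389 and 964 CPM, with reads shared between near-identical tubulins. Of 16 YAP and TEAD targets, 13 were below 0, none past 2-fold, with a median of -0.20. Ccn1, a matricellular target, stood at 506, 241 and 316 CPM (1.60-fold lower, 1.51 to 1.70), so it was lower still in IWR1.

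The lists that follow had medians between -0.11 and 0.03, against -0.02 over all genes. Of 45 DNA replication genes, 17 were above 0 and 28 below, with a median of -0.11. Pola1, a subunit of the polymerase that starts DNA strands, was the 1 at least 2-fold higher (2.22%, against 5.58% of all genes). It stood at 18.6 CPM in NT, 37.9 in IWR1 and 53.6 in Y27. Of 29 cyclins, CDKs and Myc genes, 2 were at least 2-fold higher (6.9%), Rb1 and Ccne2. Of 27 p53 targets and apoptosis genes, 13 were above 0 and 14 below, and 3 were at least 2-fold higher (11.1%). Among the 3 was Xiap, which inhibits caspases, at 39.1, 67.4 and 89.1 CPM. After removal of the trend 0 genes of these 3 lists were past 2-fold, and the log2 differences were 0.01 for Xiap and 0.00 for Ccne2. Of 233 solute carriers, 124 were above 0 and 109 below, and 5 were at least 2-fold higher (2.15%). One of these, Slc12a2, an ion cotransporter that regulates cell volume, stood at 69.9, 64.9 and 148 CPM (2.12-fold higher, 1.88 to 2.40), so that IWR1 lay below NT.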

How the data were processed

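Total RNA of 3 mouse EpiSC libraries was sequenced, and each library's groups, dose and time were taken from the labels. Per the file headers, a table holds Entrez gene, length, expected count and FPKM. The expected counts deposited by the authors are not normalized, and reads that fit several genes were shared out. FPKM values, also deposited by the authors, divide those by length and library size. Per the submitters' processing notes, Bowtie 0.12.2 and the mm8 build were used, while no counting tool is named there or in the labels. A gene absent from a table counted as 0, and 17209 genes were listed, 99.7% of them matched to a symbol.

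Counts were scaled with TMM factors (edgeR 4.0.16 in R 4.3.3). Log2 differences used a pseudocount of 1 CPM, and a gene was compared at a mean of at least 1 CPM. The 95% intervals of folds are exact conditional binomial ones, on counts rounded to integers. The threshold was 2-fold, on the log2 difference. GC content was known for 99.0% of the genes compared, from GRCm38 annotation, another assembly than that of the files, so file coordinates are not given. The steps were tested on simulated data. The genes, 43 gene lists and settings were chosen with earlier results of these data known, and 3 further lists (paraxial mesoderm, NF-kB, hemidesmosome) after these values were seen. Named genes are the 20 with the largest log2 difference each way among symbols that are not gene models, at 10 CPM or more in the higher library and with whole counts, the 10 each way with the largest difference in CPM, up to 4 of each list with the largest difference, and the ROCK pathway list. Settings tried were other pseudocounts, scalings, filters and folds, whole counts only, FPKM and removal of the length and GC trend. Some genes that the rule names are not reported here.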

Additional observations from a re-analysis of the deposited data

How the results depend on the processing

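The count of 723 genes at least 2-fold higher in Y27 was 340 with a pseudocount of 5 CPM, 1928 at 1.5-fold, 80 at 3-fold, 437 with whole counts only, 201 once the trend on length and GC was removed, and 256 where the interval had to lie wholly past 2-fold. The count of 173 lower genes was 320 with a pseudocount of 0.1 CPM, 42 with 5 CPM, 96 at a mean of at least 5 CPM, 717 at 1.5-fold, 27 at 3-fold, 93 from the deposited FPKM and 49 by the interval. Removal of the trend left correlations of 0.0113 with length and 0.0144 with GC content by construction. It turned the sign of the ubiquitin list (-0.0087) and of Rock2 (-0.0017), Ect2 (-0.13), Cfl2 (-0.48), Rdx (-0.10), Pkn2 (-0.085), Cdc42bpa (-0.0794), Pak3 (-0.39), Epha7 (-0.0343), Ttn (-0.11), Orc4 (-0.30), Usp34 (-0.032) and Kcnq1ot1 (-0.86). No other setting tried turned a sign among those compared. Values nearer to 0 could change sign and were not counted. The Rac and Cdc42 list, for example, had a median of 0.06 as measured and -0.06 after removal. The share of called genes that were higher was 80.7% with TMM, 85.6% scaled by total, 75.8% by upper quartile and 81.3% by DESeq2 1.42.0 size factors. At this depth a gene with 0 reads may still stand at up to 0.531 CPM in NT or 0.538 in Y27, by counting error only. No paired analysis was possible because each condition has 1 library.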
